A study of Mus musculus with 19 samples.

Results

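Glial-type radial glia genes are transcripts that cortical radial glia share with astrocytes, and 9 of them were followed here across RNA sequencing libraries made from the cortex of mouse embryos of stage E14.5: Aldoc, Slc1a3, Fabp7, Glul, Sox9, Mt3, Ttyh1, Ddah1 and Prom1. They were chosen by symbol, all 9 were found among 47643 gene symbols, and all 9 passed the expression filter (at least 1 TPM in at least 4 libraries) together with 13520 genes in total. Mutant embryos were GFAP::Cre; SmoM2: a GFAP promoter drives Cre recombinase and Cre switches on SmoM2, an always active form of the Hedgehog signal transducer Smoothened; the controls were wildtype. Each genotype was sampled in dorsal and in medial cortex, giving 4 mutant dorsal, 6 control dorsal, 4 mutant medial and 5 control medial libraries. The tissue label reads dorsal or medial cortex, whereas the extraction text speaks of medial or lateral pieces. The pieces hold progenitors, neurons, vessels and blood together, so fewer cells of a type and less RNA per cell cannot be told apart.

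Radial glia are the stem cells of the embryonic cortex: their cell bodies line the ventricle, a long process reaches the pial surface, and they divide to give neurons first and astrocytes and other glia later. They carry many proteins that astrocytes keep, among them a glutamate transporter, a fatty acid binding protein and glutamine synthetase, next to stem cell transcription factors that they share with the neuroepithelium. A GFAP promoter can be active in radial glia as well as in astrocytes. Which cells the Cre driver acted in, and whether those cells express the genes followed here, was not tested.

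The labels were checked with Gli1, a direct Hedgehog target, which averaged 35.0 ± 5.44 TPM in mutant dorsal and 0.586 ± 0.268 TPM in control dorsal libraries (SD, n = 4 and 6), and 37.2 ± 9.94 TPM in mutant medial and 0.398 ± 0.135 TPM in control medial libraries (SD, n = 4 and 5). TPM values are transcript levels scaled by gene length and to a total of 1000000 per library, so levels of different genes can be compared, while read depth cannot be recovered. Each library listed 17357 to 18670 genes with a value above 0. Histone genes took 10.1 to 12.6% of all TPM in mutant dorsal against 5.85 to 7.29% in control dorsal libraries, and 12.4 to 12.5% in mutant medial against 6.79 to 8.69% in control medial libraries. The median change of all tested genes was -0.10 dorsally and -0.11 medially on the log2 scale (mutant minus control). By Xist and Ddx3y, 3 control embryos were female and all others male, so sex was not balanced between the genotypes. Choroid plexus and hem genes summed to 1011 TPM in the highest of the control medial libraries, whose median was 116 TPM.

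The 9 genes did not move as one in mutant cortex. In dorsal cortex Aldoc, Fabp7, Ttyh1 and Ddah1 fell and Slc1a3 and Prom1 rose, and in medial cortex Aldoc, Fabp7, Ttyh1, Ddah1 and Mt3 fell and Slc1a3 and Glul rose (limma on log2(TPM + 1), Benjamini-Hochberg adjusted p under 0.05 over 13520 genes). Sox9 passed in neither region. Thus 6 of 9 genes passed dorsally, where 37.5% of all tested genes did, and 7 of 9 passed medially, where 39.6% did. By direction, the dorsal background was 9.93% higher and 27.6% lower and the medial background 9.44% higher and 30.2% lower. The median change of the 9 genes was -0.30 dorsally and -0.24 medially. Libraries of the mutant and control groups did not overlap for 3 of the 9 genes dorsally (24.8% of tested genes) and for 4 of 9 medially (30.4%).

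**Figure D1:**
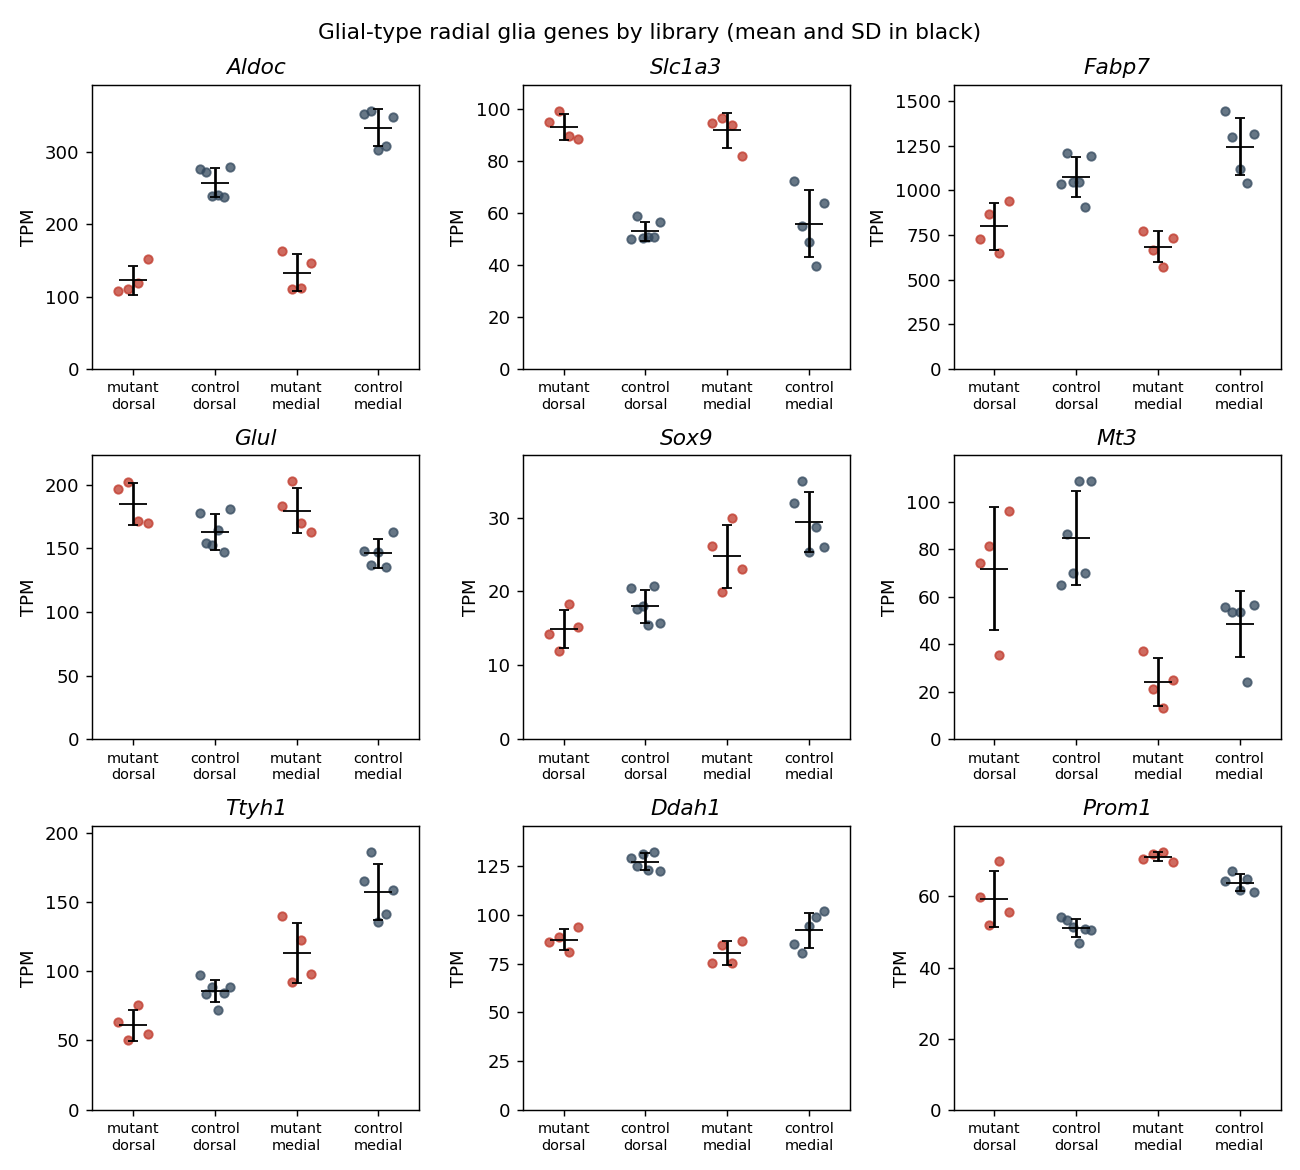
Level of each gene in TPM (vertical axis, linear from 0) in every library, by group; red points are mutant and dark blue points control libraries, and the black bar with whiskers is the mean with SD over 4, 6, 4 and 5 libraries. Slc1a3 lies between 81.9 and 99.3 TPM in the mutant libraries, above all control libraries, and Aldoc lies between 108 and 163 TPM in the mutant libraries, below all control libraries.

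Among the metabolic genes, Aldoc had the strongest fall. It encodes aldolase C, the brain form of the glycolytic enzyme aldolase (chromosome 11, 78322968 to 78327781, plus strand, GRCm38). Aldoc stood at 108, 111, 119 and 152 TPM in the 4 mutant dorsal libraries, against a lowest value of 238, a median of 256 and a highest of 280 TPM in the 6 control dorsal libraries. In medial cortex it stood at 163, 111, 112 and 146 TPM in mutant libraries 1 to 4, against 353, 357, 302, 309 and 348 TPM in control libraries 2 to 6. In both regions every mutant library lay below every control library. The log2 change was -1.08 ± 0.11 dorsally (standard error, SE; limma adjusted p = 6.48e-07) and -1.34 ± 0.11 medially (1.50e-07), that is 0.473-fold and 0.396-fold. Aldoa, the aldolase gene used in most tissues, averaged 170 ± 13.7 TPM in mutant dorsal and 177 ± 16.2 TPM in control dorsal libraries (SD, n = 4 and 6) and passed the test neither dorsally nor medially (limma adjusted p = 0.654 and 0.472); the annotation lists Aldoa under 2 gene identifiers, so its value is uncertain.

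Glul encodes glutamine synthetase, which turns glutamate into glutamine (chromosome 1, 153899944 to 153909723, plus strand). It stood at 196, 202, 172 and 170.3 TPM in mutant dorsal libraries, against 147 to 181 TPM with a median of 159 TPM in control dorsal libraries, and the groups overlapped. The medial level was 183, 203, 170 and 163 TPM in mutant libraries, against 148, 137, 147, 135 and 163 TPM in control libraries, where the highest control library lay just above the lowest mutant library. The medial change passed (0.30 ± 0.08, limma adjusted p = 0.00576) and the dorsal one did not (0.18 ± 0.07, adjusted p = 0.0607). The dorsal change passed once the embryo was a random block (limma adjusted p = 0.0322), after median-ratio rescaling (0.28, adjusted p = 0.0125) and after quantile normalization (0.0225). It also passed with histone and mitochondrial genes left out of the total, a separate setting (0.00980). So it did in 4 fits without 1 library (control dorsal 1 and 6, mutant dorsal 4 and mutant medial 2, adjusted p from 0.0344 to 0.0478).

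Slc1a3, the gene of the glutamate transporter GLAST by which radial glia and astrocytes take up glutamate, went the other way from Aldoc (chromosome 15, 8634124 to 8710764, minus strand). It stood at 94.9999, 99.3, 89.8 and 88.4 TPM in mutant dorsal libraries, against 50.1 to 58.8 TPM with a median of 50.8 TPM in control dorsal libraries. In medial cortex it stood at 94.6, 96.6, 93.9 and 81.9 TPM in mutant libraries, against 72.3, 55.1, 48.7, 39.5 and 63.8 TPM in control libraries. The lowest mutant library exceeded the highest control library in each region, and the medial controls varied most among themselves. The log2 change was 0.81 ± 0.11 dorsally (limma adjusted p = 3.28e-05, 1.75-fold) and 0.73 ± 0.12 medially (adjusted p = 0.000126, 1.66-fold). Slc1a2, the gene of the other main astrocyte glutamate transporter, was far less abundant, with means of 2.27 ± 0.282 TPM in mutant dorsal and 3.24 ± 0.490 TPM in control dorsal libraries (SD, n = 4 and 6). Medially Slc1a2 fell by 0.84 ± 0.26 (adjusted p = 0.0153), with 4.59 ± 2.75 TPM in mutant and 8.60 ± 3.18 TPM in control libraries (SD, n = 4 and 5), while dorsally it did not pass (adjusted p = 0.263).

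Fabp7, the gene of the brain lipid binding protein that carries fatty acids in radial glia, was the most abundant of the 9 genes in every group (chromosome 10, 57784881 to 57788450, plus strand). It stood at 730.1, 871, 651 and 942 TPM in mutant dorsal libraries, against 909 to 1209 TPM with a median of 1047 TPM in control dorsal libraries; 1 mutant library, number 4, lay within the control range. In medial cortex it had 771, 666.5, 570.1 and 736 TPM in mutant libraries, against 1447, 1299, 1122, 1044 and 1319 TPM in control libraries, without overlap. The log2 change was -0.43 ± 0.11 dorsally (limma adjusted p = 0.00616) and -0.86 ± 0.12 medially (adjusted p = 2.75e-05). Fabp5, the epidermal-type member of the same family, averaged 254 ± 6.03 TPM in mutant dorsal and 246 ± 37.97 TPM in control dorsal libraries and 247 ± 12.7 TPM in mutant medial and 246 ± 35.2 TPM in control medial libraries, and did not pass (adjusted p = 0.696 and 0.941).

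The promoters of Slc1a3, Aldoc and Fabp7 are shown because Slc1a3 rose while Aldoc and Fabp7 fell in both regions. Of the 9 genes, 8 had an entry in the RefSeq promoter table (GRCm38.p6; 250 bases before to 50 after the start), and Aldoc and Prom1 had a pair each, of which the more upstream one is printed for Aldoc. Sequences run 5′ to 3′ on the gene's strand. Capitals mark matches on either strand to GACCACCCA (GLI factors), GTGGGAA (RBPJ, the Notch effector), the palindromic nuclear factor I motif, TATAAA (the TATA box), CCAAT (the box named for its letters) and ACAAAG (SOX factors), and no 2 matches overlap in these windows.
Slc1a3, chr15:8710758-8711057, minus strand: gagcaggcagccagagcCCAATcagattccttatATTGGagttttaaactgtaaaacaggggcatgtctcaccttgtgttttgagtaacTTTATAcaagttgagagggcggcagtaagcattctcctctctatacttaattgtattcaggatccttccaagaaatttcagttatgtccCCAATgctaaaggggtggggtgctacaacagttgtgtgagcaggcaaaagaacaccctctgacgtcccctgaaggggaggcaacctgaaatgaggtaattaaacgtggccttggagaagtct
Aldoc, chr11:78322823-78323122, plus strand: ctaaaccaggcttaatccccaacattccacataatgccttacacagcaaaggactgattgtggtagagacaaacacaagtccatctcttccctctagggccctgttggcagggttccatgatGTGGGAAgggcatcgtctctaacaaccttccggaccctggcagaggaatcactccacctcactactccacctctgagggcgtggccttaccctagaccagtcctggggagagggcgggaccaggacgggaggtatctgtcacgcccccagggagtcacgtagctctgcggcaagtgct
Fabp7, chr10:57784673-57784972, plus strand: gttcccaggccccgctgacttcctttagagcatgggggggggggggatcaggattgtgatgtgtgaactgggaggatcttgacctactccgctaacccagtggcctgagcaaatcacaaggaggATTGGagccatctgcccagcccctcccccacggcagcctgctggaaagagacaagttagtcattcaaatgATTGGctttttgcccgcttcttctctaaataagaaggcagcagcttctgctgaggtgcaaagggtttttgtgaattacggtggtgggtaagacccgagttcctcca
The Slc1a3 window held CCAAT 3 times and TATAAA once, with TATAAA at position -161 and read on the other strand. The Aldoc window held GTGGGAA once, at position -128 from the start, and the Fabp7 window held CCAAT at positions -126 and -56 on the other strand. The Aldoc window that is not printed also held GTGGGAA, at position 17. Over 32851 promoters of the same length, 37.4% held CCAAT, 13.6% TATAAA, 6.38% GTGGGAA, 18.7% ACAAAG, 0.253% GACCACCCA and 0.0365% the nuclear factor I motif. None of the 10 windows of the 9 genes held GACCACCCA, the nuclear factor I motif or ACAAAG, which says only that these letters are not in these windows.

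Ddah1 encodes an enzyme that breaks down asymmetric dimethylarginine, an inhibitor of nitric oxide synthase (chromosome 3, 145758675 to 145894277, plus strand). It stood at 86.3, 88.8, 80.9 and 93.9 TPM in mutant dorsal libraries, against 123 to 133 TPM with a median of 127 TPM in control dorsal libraries. Medially it stood at 75.2, 84.4, 75.5 and 86.8 TPM in mutant libraries, against 85.2, 80.6, 94.4, 99.0 and 102 TPM in control libraries. The dorsal groups were widely apart and the medial groups overlapped. The log2 change was -0.54 ± 0.06 dorsally (limma adjusted p = 3.27e-06) and -0.19 ± 0.06 medially (adjusted p = 0.0250). The medial call was lost after median-ratio rescaling (-0.09, adjusted p = 0.329), quantile normalization (0.127) and with histone and mitochondrial genes left out of the total (0.165), and with only the medial libraries fitted (0.0778) and in 5 of 19 fits without 1 library (control medial 4, 5 and 6 and mutant medial 1 and 3; adjusted p up to 0.0829). Its paralog Ddah2 fell by 0.40 ± 0.08 dorsally and 0.51 ± 0.08 medially (adjusted p = 0.000641 and 0.000101).

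Ttyh1 encodes a membrane protein of the tweety family found in neural stem cells (chromosome 7, 4119408 to 4136708, plus strand). It stood at 63.6, 50.2, 75.3 and 54.9 TPM in mutant dorsal libraries, against 72.1 to 97.1 TPM with a median of 86.5 TPM in control dorsal libraries. Medially it stood at 139, 92.2, 122 and 98.2 TPM in mutant libraries, against 165, 186, 135, 142 and 158 TPM in control libraries. In each region 1 mutant library reached into the control range, number 3 dorsally and number 1 medially. The log2 change was -0.50 ± 0.12 dorsally (limma adjusted p = 0.00457) and -0.48 ± 0.13 medially (adjusted p = 0.00619). An antisense transcript, 9430041J12Rik, overlaps Ttyh1 and reached 7.23 TPM at most; whether the authors counted by strand is not given in the sources used here.

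Prom1 encodes prominin-1, a protein of the apical membrane that faces the ventricle and of membrane protrusions (chromosome 5, 43993620 to 44102032, minus strand). It stood at 60.0, 51.9, 70.0 and 55.5 TPM in mutant dorsal libraries, against 47.0 to 54.2 TPM with a median of 51.1 TPM in control dorsal libraries. Medially it stood at 70.7, 72.0, 72.6 and 69.7 TPM in mutant libraries, against 64.5, 67.3, 61.8, 64.9 and 61.2 TPM in control libraries. The dorsal groups overlapped, whereas every medial mutant library lay above every medial control library. The dorsal change of 0.20 ± 0.06 passed (limma adjusted p = 0.0151) and did not without mutant dorsal library 3 (0.12, adjusted p = 0.0780) or with only the dorsal libraries fitted (adjusted p = 0.0576). The medial change of 0.15 ± 0.06 did not pass as deposited (limma adjusted p = 0.0618). It passed after median-ratio rescaling (0.26, adjusted p = 0.00814) and after quantile normalization (0.0138). In separate settings it passed with histone and mitochondrial genes left out of the total (0.0173) and with only the medial libraries fitted (0.0131). Without mutant dorsal library 2 (0.0353) or 3 (0.0136) it passed too.

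**Figure D2:**
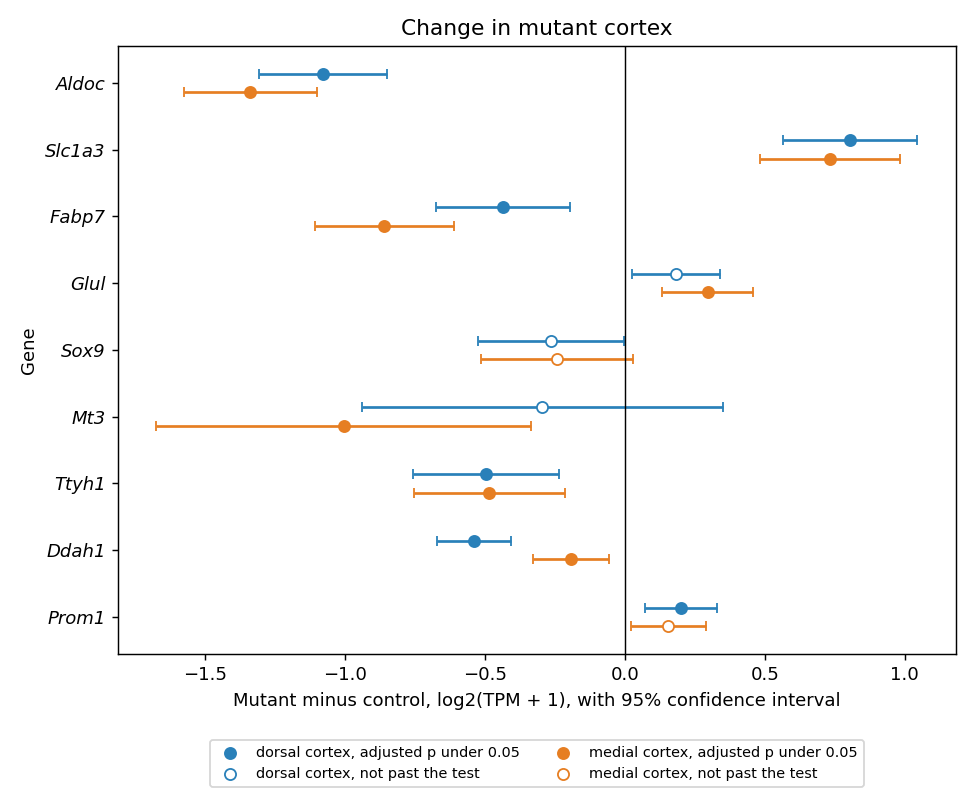
Change of each gene (rows) on the log2(TPM + 1) scale, mutant minus control (horizontal axis), in dorsal (blue) and medial (orange) cortex with 95% confidence intervals from limma; filled points have an adjusted p under 0.05. Aldoc, Fabp7, Ttyh1 and Ddah1 lie left of 0 and Slc1a3 right of 0 in both regions, and the intervals of Mt3 are the widest.

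Sox9, the transcription factor gene that starts and maintains the glial programme of neural stem cells, was the least abundant of the 9 genes in 3 of the 4 groups (chromosome 11, 112782224 to 112787760, plus strand). It stood at 14.3, 11.96, 18.3 and 15.1 TPM in mutant dorsal libraries, against 15.4 to 20.7 TPM with a median of 17.8 TPM in control dorsal libraries. Medially it stood at 26.2, 20.0, 29.9 and 23.0 TPM in mutant libraries, against 32.0, 34.9, 25.3, 28.7 and 26.0 TPM in control libraries. The groups overlapped in both regions and neither change passed limma (-0.26 ± 0.12, adjusted p = 0.103, and -0.24 ± 0.13, adjusted p = 0.145); without mutant dorsal library 3 the dorsal adjusted p was 0.0420. The 95% confidence intervals ran from -0.52 to -0.003 dorsally and from -0.51 to 0.03 medially. Sox2, a stem cell factor gene of the whole neuroepithelium, rose in both regions (0.40 ± 0.08 and 0.45 ± 0.08; adjusted p = 0.00100 and 0.000487).

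Mt3 encodes a brain metallothionein that binds zinc and copper (chromosome 8, 94152607 to 94154146, plus strand), and it varied most within groups. It stood at 74.2, 81.4, 35.4 and 96.2 TPM in mutant dorsal libraries, against 65.1 to 109 TPM with a median of 78.3 TPM in control dorsal libraries. Medially it stood at 37.4, 21.4, 13.2 and 24.9 TPM in mutant libraries, against 55.7, 53.7, 53.6, 24.1 and 56.6 TPM in control libraries. The medial change was -1.005 ± 0.32 (limma adjusted p = 0.0181), with control library 5 inside the mutant range. That call was lost without mutant medial library 3 (-0.76, adjusted p = 0.0772) and with embryo sex as a term (-0.82, adjusted p = 0.0872). The dorsal change of -0.30 ± 0.31 did not pass (adjusted p = 0.480) and was 0.01 without mutant dorsal library 3. Its neighbours Mt1 and Mt2, the metallothionein genes of most tissues, did not pass dorsally (adjusted p = 0.407 and 0.140), and Mt2 fell by 1.22 ± 0.40 medially (adjusted p = 0.0238).

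Neuronal markers moved beside these falls. Of 15 pan-neuronal genes, 10 fell and none rose in dorsal cortex and likewise in medial cortex, and their summed level ran from 3028 to 4505 TPM in mutant dorsal against 4591 to 5517 TPM in control dorsal libraries, and from 2324 to 3061 TPM in mutant medial against 3564 to 4395 TPM in control medial libraries. All 15 were above 1 TPM in at least 1 library. Map2 fell by 0.48 ± 0.09 dorsally and Gap43 by 0.59 ± 0.09 medially (limma adjusted p = 0.000491 and 8.27e-05). Their part in the changes of the 9 genes was not tested.

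Scaling of a library's total cancels in a ratio within it, except for the 1 TPM added to each side, which weighs on partners as low as Slc1a2. In this form 5 of the genes are given against a partner (adjusted over 12 tests of mean log2 ratios with 1 TPM added on each side; exact two-sided permutation tests over libraries, whose smallest p is 0.00952 dorsally and 0.0159 medially). Aldoc to Aldoa was lower in mutants, at -0.48 ± 0.32 in mutant and 0.54 ± 0.18 in control dorsal libraries (mean log2 ratio ± SD, n = 4 and 6) and at -0.35 ± 0.30 in mutant and 0.90 ± 0.15 in control medial libraries (n = 4 and 5), with an exact adjusted p = 0.0272 in each region. The ratio was 0.595 to 0.989 in the mutant libraries and 1.17 to 2.15 in the control libraries. As the value of Aldoa is uncertain, so is the level of this ratio. Slc1a3 to Slc1a2 was higher in mutants, with a ratio of (TPM + 1) of 25.8 to 31.0 in mutant against 10.2 to 16.2 in control dorsal libraries and of 10.2 to 33.8 in mutant against 4.17 to 7.49 in control medial libraries (exact permutation, adjusted p = 0.0272 in each region). The log2 difference was 1.18 dorsally and 1.58 medially, and 1.31 and 1.74 with 0.1 TPM added in place of 1. Medially the fall of the low partner Slc1a2 (-0.84) was the larger part, beside the rise of Slc1a3 (0.73). Dorsally the rise of Slc1a3 (0.81) was the larger part, beside a change of -0.37 in Slc1a2 that did not pass.

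Fabp7 to Fabp5 was lower in mutants in both regions, with a log2 difference of -0.50 dorsally and -0.87 medially (exact permutation, adjusted p = 0.0423 and 0.0272); the dorsal groups overlapped and 9 of 10 fits without 1 library lost that call (adjusted p up to 0.0952). Sox9 to Sox2 differed without overlap: 0.0482 to 0.0615 in mutant against 0.0758 to 0.0991 in control dorsal libraries, and 0.0516 to 0.0631 in mutant against 0.0824 to 0.104 in control medial libraries (exact permutation, adjusted p = 0.0272 in each region). The larger part of this was the rise of the partner Sox2 (0.40 and 0.45), as Sox9 itself passed in neither region (-0.26 and -0.24). With 1 mutant medial library left out the smallest p the exact permutation test can give is 0.0357, so the adjusted p = 0.0536 of the medial Aldoc, Slc1a3, Fabp7 and Sox9 ratios without library 1, 2 or 3 says nothing about their stability. Mt3 to the sum of Mt1 and Mt2 passed in neither region (0.21 and -0.23; exact permutation, adjusted p = 0.769 and 0.778), with an SD of 1.06 and 1.44 in the mutant groups.

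**Figure D3:**
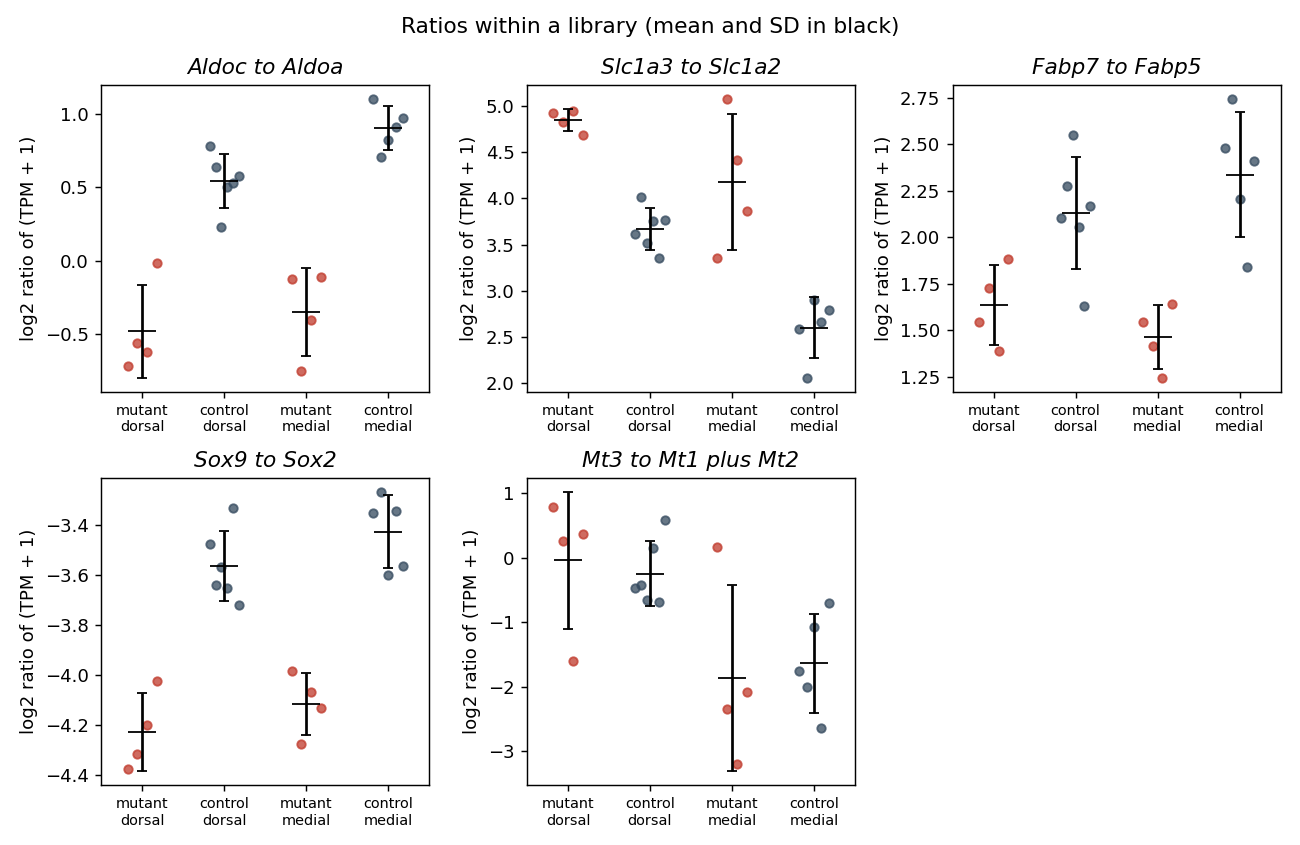
Log2 ratio of (TPM + 1) of 5 genes to a partner gene within each library (vertical axis), by group; red points are mutant and dark blue points control libraries, and the black bar with whiskers is the mean with SD. In the Sox9 to Sox2 panel the mutant means are -4.23 and -4.12 and the control means -3.57 and -3.43, with no overlap in either region. The rise of Sox2 is the larger part of that difference.

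Ttyh1, Sox9, Prom1 and Mt3 passed between medial and dorsal cortex in both genotypes when the spread was estimated over all 19 libraries. Estimated from the 8 mutant libraries alone, none of the 9 genes passed between regions in mutants (limma adjusted p = 0.0569 for Ttyh1 and Sox9, 0.0626 for Mt3 and 0.0886 for Prom1). Libraries of the same genotype and title number from the 2 regions deviated together in all 9 pairs, so values within such an embryo are given beside limma's. With the embryo as a fixed block, limma adjusted p in mutants was 1.20e-05 for Ttyh1, 3.97e-05 for Sox9, 0.000338 for Mt3 and 0.00291 for Prom1. For Mt3 in controls that fit gave a limma adjusted p = 0.00221. Ttyh1 was higher medially than dorsally in 4 of 4 mutant and 5 of 5 control embryos, with a log2 difference of 0.88 ± 0.14 in mutants (limma adjusted p = 0.00207) and 0.87 ± 0.12 in controls (7.02e-05). Sox9 was likewise higher medially in 4 of 4 mutant and 5 of 5 control embryos (0.69 ± 0.14, adjusted p = 0.00372, and 0.67 ± 0.12, adjusted p = 0.000375). Prom1 was higher medially in 4 of 4 mutant and 5 of 5 control embryos. Its difference was 0.27 ± 0.07 in mutants (limma adjusted p = 0.0106, and 0.0521 without mutant dorsal library 2) and 0.31 ± 0.06 in controls (0.000576). Mt3 was lower medially in 4 of 4 mutant and 5 of 5 control embryos, by -1.53 ± 0.33 in mutants (adjusted p = 0.00600) and -0.82 ± 0.29 in controls (0.0365, lost in 5 of 19 fits without 1 library: control dorsal 2, 4 and 6 and control medial 3 and 5, adjusted p up to 0.108; 0.0537 without the filter on low values). In all, 4 of 9 genes passed between regions in mutants, 3 higher and 1 lower, where 18.8% of all tested genes passed, 8.03% higher and 10.8% lower. In controls 6 of 9 passed, 4 higher and 2 lower, where 32.4% of all tested genes passed, 17.6% higher and 14.9% lower. Medial and dorsal libraries did not overlap for 2 of the 9 genes in mutants (15.2% of tested genes) and for 6 of 9 in controls (20.5%). Pan-neuronal markers were lower medially too, 11 of 15 in mutants and 9 of 15 with 1 higher in controls; their part in these differences was not tested.

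For Aldoc and Ddah1 the regional difference passed in controls and not in mutants. Aldoc did not pass between regions in mutants (0.11 ± 0.12, limma adjusted p = 0.561; higher medially in 2 of 4 embryos) and was higher medially in controls (0.37 ± 0.10, adjusted p = 0.00917; 5 of 5 embryos). Ddah1 did not pass in mutants (-0.12 ± 0.07, adjusted p = 0.242; lower medially in 4 of 4 embryos) and was lower medially in controls (-0.47 ± 0.06, adjusted p = 4.06e-05; 5 of 5 embryos). With the embryo as a fixed block, Fabp7 was lower medially in mutants (-0.21 ± 0.06, adjusted p = 0.0239; 3 of 4 embryos) and higher medially in controls (0.20 ± 0.06, adjusted p = 0.0140; 5 of 5 embryos), and Glul was lower medially in controls (-0.13 ± 0.03, adjusted p = 0.00150; 5 of 5 embryos), calls that the fit without the block did not make (adjusted p = 0.251, 0.143 and 0.101). Slc1a3 did not pass in mutants (-0.02 ± 0.13, adjusted p = 0.932) or controls (0.05 ± 0.11, adjusted p = 0.771).

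**Figure D4:**
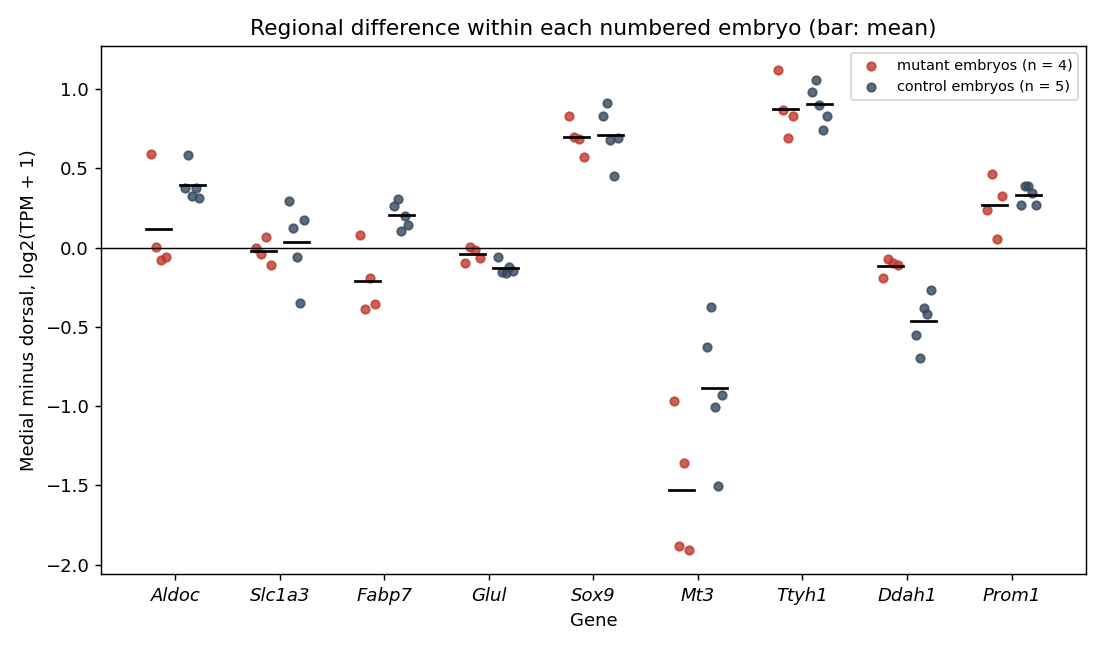
Difference between medial and dorsal cortex within each numbered embryo on the log2(TPM + 1) scale (vertical axis) for each gene; red points are the 4 mutant embryos, dark blue points the 5 control embryos with both regions, and the black bar is their mean. Ttyh1, Sox9 and Prom1 lie above 0 and Mt3 and Ddah1 below 0 in every embryo of both genotypes.

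Whether the mutant effect itself differed between the regions was tested as the difference of both effects (medial minus dorsal). In limma without a block 0 of the 9 genes passed (2 at an unadjusted p under 0.05, Ddah1 and Fabp7), and over all 13520 genes 1 did (0.0074%), Ccnd1 (1.38 ± 0.21, adjusted p = 0.0464), named after its value was seen. For Ddah1 the difference was 0.35 ± 0.09, with adjusted p = 0.593 without a block, 0.0335 with the embryo as a random block and 0.142 as a fixed block. For Fabp7 it was -0.43 ± 0.16, with an adjusted p = 1.00 without a block and 0.1197 with the embryo as a fixed block.

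The wider lists are given beside the shares over all tested genes, which were 9.93% higher and 27.6% lower dorsally and 9.44% higher and 30.2% lower medially. Of 32 measured other astroglial genes, 3 rose and 8 fell dorsally and 3 rose and 12 fell medially, with medians of -0.21 and -0.23, near those shares. Plpp3, which encodes a lipid phosphatase of the cell surface, rose by 0.37 ± 0.06 and 0.40 ± 0.06 (limma adjusted p = 0.000145 and 0.000119). Nfib, a transcription factor gene that promotes gliogenesis, fell by 0.57 ± 0.06 and 0.41 ± 0.07 (3.02e-06 and 0.000152). Mfge8, which encodes a secreted bridge to phagocytes, fell by 0.52 ± 0.08 and 0.58 ± 0.08 (8.82e-05 and 4.45e-05).

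Of 14 measured paralogs of the 9 genes, 3 fell and none rose dorsally and 7 fell and none rose medially; beside Ddah2, Slc1a1, a neuronal glutamate transporter gene, fell by 0.44 ± 0.11 and 0.70 ± 0.12 (limma adjusted p = 0.00570 and 0.000159). Of 25 other radial glia and neuroepithelial genes, 7 rose and 11 fell dorsally and 6 rose and 7 fell medially. Sox1, a neuroepithelial factor gene, rose by 0.72 ± 0.11 and 1.42 ± 0.11 (7.42e-05 and 9.50e-08), and Cdon, a Hedgehog co-receptor gene, fell by 0.62 ± 0.07 and 0.66 ± 0.07 (2.51e-06 and 2.58e-06).

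Of 16 glycolysis genes without Aldoc, 2 rose and 4 fell in each region, with medians of -0.01 and -0.07, again near the shares over all genes. Their summed level did not fall, with overlapping groups in both regions. Its median was 5442 TPM in mutant dorsal against 5106 TPM in control dorsal libraries. In medial cortex it was 6121 TPM in mutant against 5618 TPM in control libraries. Pfkm, the muscle-type phosphofructokinase gene, fell by 0.35 ± 0.05 and 0.40 ± 0.06, Eno2, the neuronal enolase gene, by 0.70 ± 0.12 and 0.76 ± 0.13, and Ldhb, a lactate dehydrogenase gene, by 0.32 ± 0.06 and 0.38 ± 0.06 (limma adjusted p from 3.37e-05 to 0.000296). Of 18 other genes of glutamate and glutamine handling, 1 rose and 4 fell dorsally and 4 rose and 8 fell medially. Slc38a3, a glutamine transporter gene, fell by 0.52 ± 0.10 and 0.70 ± 0.11 (0.000685 and 6.94e-05), and Got1, a cytosolic aspartate aminotransferase gene, rose by 0.13 ± 0.04 and 0.22 ± 0.04 (0.00855 and 0.000141).

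S-phase genes, which mark DNA replication, moved beside the 9 genes: all 20 rose in both regions, with a median change of 0.83 dorsally and 0.71 medially. Their summed level ran from 2847 to 3760 TPM in mutant dorsal against 1647 to 1950 TPM in control dorsal libraries, and from 3428 to 3927 TPM in mutant medial against 2055 to 2333 TPM in control medial libraries, without overlap. Markers of other cell types were also measured. Of 9 oligodendrocyte lineage genes, 2 stayed below 1 TPM in all libraries and 1 of the 7 tested rose in each region. That gene was Olig2, which encodes a factor of both ventral progenitors and oligodendrocyte precursors, with a log2 change of 2.82 ± 0.29 dorsally and 3.27 ± 0.30 medially (limma adjusted p = 8.15e-07 and 3.95e-07). Summed with Olig2, the 9 lineage genes ran from 30.1 to 42.7 TPM in mutant dorsal against 20.4 to 24.9 TPM in control dorsal libraries, and from 45.9 to 52.9 TPM in mutant medial against 21.9 to 30.5 TPM in control medial libraries. Olig2 alone averaged 15.9 TPM in mutant dorsal and 1.27 TPM in control dorsal libraries. The median change of the 7 tested genes was -0.02 dorsally and -0.05 medially. Of 7 tested microglia genes, 4 fell dorsally and none passed medially, with sums of 33.4 to 42.8 TPM in mutant dorsal against 46.9 to 65.2 TPM in control dorsal libraries. Of 7 ependymal genes 1 was tested, Foxj1, which fell by 0.59 ± 0.17 dorsally and 0.82 ± 0.18 medially (limma adjusted p = 0.0122 and 0.00167), and 4 stayed below 1 TPM in all libraries. The ependymal sum ran from 3.63 to 4.95 TPM in mutant dorsal against 5.25 to 7.34 TPM in control dorsal libraries and from 3.81 to 8.89 TPM in mutant medial against 7.59 to 14.4 TPM in control medial libraries. Of 7 choroid plexus and hem genes 1 fell in each region, of 6 meninges genes 1 fell dorsally, of 9 endothelial genes 1 fell dorsally, and of 7 erythroid genes none passed in either region. Their part in the changes of the 9 genes was not tested.

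Likeness of the 9 genes to other genes was taken over the 19 libraries (Pearson's r of log2(TPM + 1), a description over libraries that share embryos and groups and whose depth is unknown). Aldoc was most like Megf6 and Nxph4 (r = 0.973 and 0.972), Slc1a3 like Plxnc1 and Tmem176a (0.948 and 0.934) and Fabp7 like Dusp26 and Ormdl3 (0.958 and 0.950). Glul was most like Maoa and Slmo2 (0.885 and 0.866), Ddah1 like Pde4d and Fam126a (0.962 and 0.958) and Prom1 like Tmem123 and the glycolysis gene Pkm (0.975 and 0.972). Sox9 was most like Chd7 and Jam3 (0.982 and 0.981) and Ttyh1 like Fzd9 and Emx2 (0.987 and 0.983). Mt3 was most like Stmn3, a neuronal microtubule gene, and Atpif1 (0.948 and 0.943). Stmn2, like Stmn3 in the pan-neuronal list, was also among the closest 4 of Mt3 (0.934). On deviations from group means, Mt3 had r = 0.901 with Stmn3 and 0.899 with Stmn2. Emx2 was also among the closest 4 of Sox9 (0.974). None of the 9 genes was among the closest 4 of another. Pairs among the 9 ran from r = -0.857 for Mt3 and Prom1 to 0.948 for Sox9 and Ttyh1, with 0.912 for Aldoc and Fabp7. On deviations from group means these r were -0.612, 0.783 and 0.705. For Fabp7 and Slc1a3 r turned from -0.658 to 0.539 on such deviations. For the 2 genes most like each of the 9, it was lower than over all libraries. It ran from 0.635 for Aldoc and Nxph4 to 0.947 for Prom1 and Pkm.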

How the data were processed

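Per the labels' protocols, RNA of the dissected cortex was purified on RNeasy Micro columns, and stranded total RNA libraries (TruSeq) followed. The authors deposited TPM with 1 column per library, on build mm10 per the submitters' processing notes; for the aligner, quantifier, annotation and strand setting, nothing is stated (not given in the sources used here). Each column sums to 1000000, so depth is unknown and no counting error can be given.

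Libraries were grouped by title. Separate embryos are not named in the labels; each p-value therefore reflects library-to-library spread, which may be technical. Title numbers were checked as pairs on deviations from group means: r was 0.549 to 0.795 in 9 pairs of regions within a genotype and -0.436 to 0.138 in 7 pairs of genotypes, so numbers were treated as embryos within a genotype only, a pairing that comes from the data.

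The 13520 genes that reached 1 TPM in 4 or more libraries were fitted on log2(TPM + 1), which understates changes of low genes, in limma 3.58.1 (R 4.3.3; 1 mean per group, all 19 libraries, trend and robust moderation) and adjusted by Benjamini and Hochberg over all of them. Ratios were tested in SciPy 1.17.1; 1 ratio, tested in both regions and counted in the adjustment, and 1 gene that the naming rule picks are not reported here. The fit was tested on simulated data. The members and lists were chosen with earlier results of these data known. All 9 members are named, up to 3 genes per other list and the 2 most alike per member; some genes that this rule names are only counted. Positions are from GENCODE M21 (GRCm38, the assembly of mm10). Alternatives changed the pseudocount, filter, scaling, moderation, libraries, block and sex term. The expression filter left out no member.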

Additional observations from a re-analysis of the deposited data

Results flagged for a closer look

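Among 36 sets of libraries (9 genes in 4 groups), 1 library stood far from the others of its group, where chance gives about 1 in 20. Mt3 was at 24.1 TPM in control medial library 5, against 53.6 to 56.6 TPM in the other 4 control medial libraries.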

How the results depend on the processing

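The calls of Aldoc, Slc1a3, Fabp7 and Ttyh1 between genotypes are limited by 4 to 6 libraries a group and by unknown depth. The cause of calls that other settings ended was not tested. The difference of effects was called for 0 genes without a filter (839 at an unadjusted p under 0.05), 0 with histone and mitochondrial genes left out (432) and 0 with plain empirical Bayes (463). With only both groups compared, limma called 0 genes between regions in mutants (3643 at an unadjusted p under 0.05) and 0 of the 9 (4 unadjusted).

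With the replicate block, embryo as a random block, calls numbered 49 genes and 1 of the 9 for the difference of effects, 5283 for regions in mutants and 6614 in controls; as a fixed block they numbered 16 genes and, for regions in mutants, 4950. Without a block they were 1, 2545 and 4387. Title numbers did not pair the genotypes; with the number as a fixed block Sox9 passed dorsally (-0.29, limma adjusted p = 0.0362) and medially (-0.29, 0.0492), Glul passed dorsally (0.0127) and the medial Ddah1 call was lost (0.0838). The Ttyh1 difference of effects turned to -0.000882 (pseudocount 5), -0.00507 (quantile), -0.0079 (random block) and -0.026 (fixed block), and that of Sox9 to -0.016 (fixed block).

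In male embryos only, 4 mutant and 3 control dorsal and 4 mutant and 2 control medial libraries are left, and the smallest exact p is 0.0571 and 0.133, so no ratio could pass; the changes were Aldoc to Aldoa -1.11 and -1.29, Slc1a3 to Slc1a2 1.27 and 1.45, Fabp7 to Fabp5 -0.33 and -0.66, Sox9 to Sox2 -0.72 and -0.66 (dorsal and medial).

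Leaving out 1 library at a time gave these lowest and highest values. Genes called ranged from 0 to 3 for the difference of effects and from 1138 to 3678 between regions in mutants. The difference of effects ran from -0.11 to 0.035 for Prom1, -0.10 to 0.12 for Ttyh1, -0.073 to 0.12 for Sox9 and -0.19 to 0.026 for Slc1a3. The dorsal change of Mt3 ran from -0.46 to 0.0079. The regional difference ran from -0.10 to 0.0020 for Glul and -0.048 to 0.030 for Slc1a3 in mutants, and from -0.049 to 0.17 for Slc1a3 in controls. Medial log2 ratio changes ran from -1.33 to -1.12 (Aldoc to Aldoa), 1.28 to 1.85 (Slc1a3 to Slc1a2), -0.997 to -0.77 (Fabp7 to Fabp5), -0.73 to -0.64 (Sox9 to Sox2) and -0.91 to 0.22 (Mt3). Dorsal ones ran from -0.60 to -0.41 (Fabp7 to Fabp5) and -0.072 to 0.72 (Mt3).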
